A study of Mus musculus with 5 samples.

Results

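The BCL2 family genes were described by every probe set whose platform annotation gives exactly 1 gene symbol, that symbol being one of 8 listed members. The members are the survival genes Bcl2, Bcl2l1 and Mcl1, the pore-forming genes Bax and Bak1, and the BH3-only genes Bcl2l11, Bad and Bid. The rule found 27 of 45101 probe sets, for 7 of the 8 genes. No probe set carried the single symbol Bax in the annotation used here, and Bax was not analysed here.

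Whole blood was taken from adult females of 2 outcrosses and arrayed once per sample: DBAxFVB F1, offspring of DBA/2J and FVB/NJ (3 arrays), and AKRxFVB F1, offspring of AKR/J and FVB/NJ (2 arrays). Animals of both outcrosses thus carry an FVB/NJ genome copy, and no treatment other than Avertin anaesthesia at collection is labelled. The stated question is how basal expression in blood differs by genotype. No label ties samples to separate animals. The p-values thus set each difference only against how far these samples vary within a cross, and that variation may be technical.

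Proteins of this family decide whether the outer membrane of the mitochondrion is breached, the step that commits a cell to apoptosis. Survival members hold the pore formers Bax and Bak1 in check, and BH3-only members bind the survival members or activate the pore formers. In mice Bcl2 sustains resting lymphocytes, Bcl2l1 sustains maturing red cells and platelets, Mcl1 sustains neutrophils and lymphocytes, and Bcl2l11 limits lymphocyte survival.

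Values are on a log2 scale whose base was inferred from their range, and differences are DBAxFVB F1 minus AKRxFVB F1. Array medians, without control probe sets, were 2.49 to 2.54, and the number of arrays limits the precision. Array 3 of DBAxFVB F1 stood apart: its 18 hybridisation controls had a median of 7.99, against 10.01 to 10.12 on the other arrays. The excess of 3-prime over 5-prime signal, which grows as RNA degrades, was also highest there, on the log2 scale: for Actb it was 0.82, 0.68 and 1.32 in DBAxFVB F1, against 1.22 and 1.03 in AKRxFVB F1. For Gapdh it was 0.62, 0.58 and 1.33 in DBAxFVB F1, against 1.04 and 0.73 in AKRxFVB F1. The median deviation on this array was -0.91 for probe sets with means of 8 to 10, and -0.06 for those with means of 4 to 6. Blood transcripts were present in every sample, with the reticulocyte gene Alas2, the rate-limiting enzyme of heme synthesis in red cells, between 13.45 and 13.59.

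No BCL2 family probe set passed the test of cross, and the members with the largest differences were Mcl1 and Bcl2l11. All 6 Mcl1 probe sets had lower values in DBAxFVB F1 blood. The 3 tested Bcl2l11 probe sets differed by between -1.50 and 0.30, and only 1 of them had an unadjusted p below 0.05. Of the 27 probe sets, 22 had a mean above the filter of 2.51 and 5 did not. Limma called 0 of the 22 at an adjusted p below 0.05, against 0% of all 22519 probe sets tested. At an unadjusted p below 0.05 there were 8 members (36.4%), all lower in DBAxFVB F1, against 6.79% of all tested probe sets in that direction. These 8 belong to 3 genes, and 6 of them detect Mcl1. In either direction, 2337 of all 22519 tested probe sets were below that p. The members were chosen with earlier results of these data known, so these counts are descriptions only. The median difference was -0.26 over the 22 member probe sets and 0.04 over all tested probe sets. The member median was -0.12 without DBAxFVB F1 array 3, -0.41 without DBAxFVB F1 array 1, -0.17 without AKRxFVB F1 array 2 and -0.13 after quantile normalization. The count of 8 became 4 when AKRxFVB F1 array 1 was left out, and 5 when DBAxFVB F1 array 2 was.

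**Figure D1:**
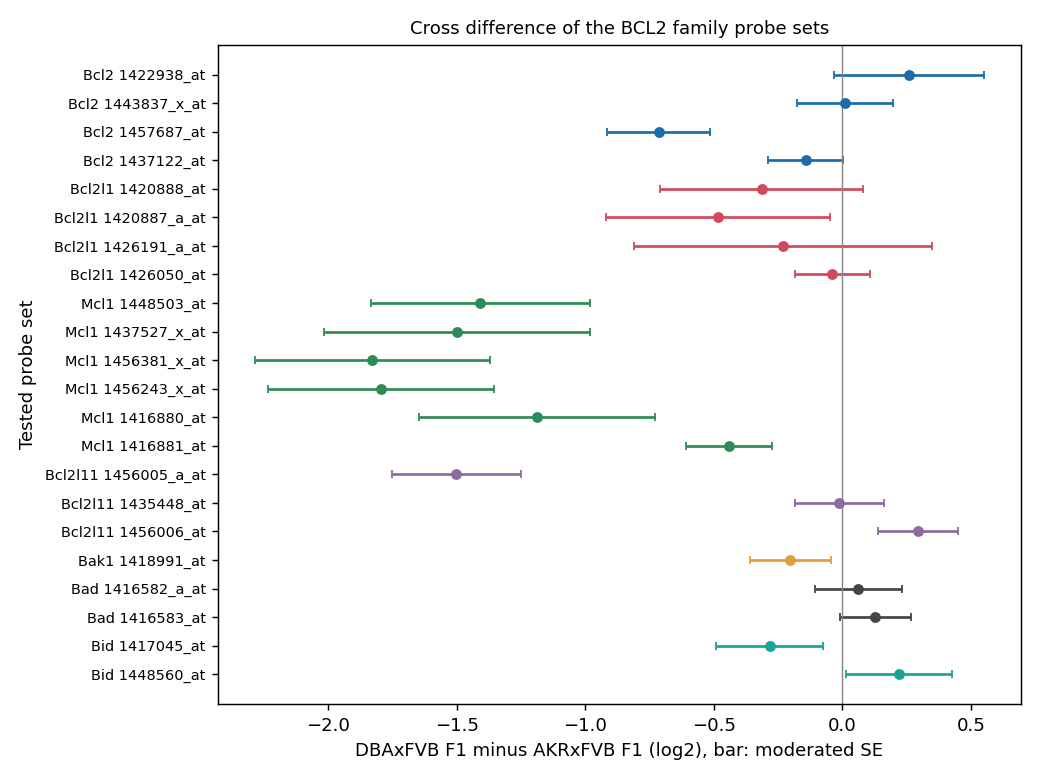
Difference between the crosses (log2, DBAxFVB F1 minus AKRxFVB F1, horizontal axis) for each of the 22 tested probe sets (vertical axis, coloured by gene), with limma's moderated standard error as bars. The 6 Mcl1 probe sets lie between -1.83 and -0.44 and 1 Bcl2l11 probe set lies at -1.50, while 14 of the others lie between -0.48 and 0.30 and Bcl2 1457687_at at -0.71.

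Mcl1 encodes a short-lived survival protein that cells must keep making, and all 6 of its probe sets read lower on every DBAxFVB F1 array than on any AKRxFVB F1 array. The probe set with the highest mean, 1448503_at, read 4.97, 4.60 and 5.57 in DBAxFVB F1 blood, against 7.02 and 5.89 in AKRxFVB F1 blood. Its mean was 5.05 ± 0.49 (SD, n = 3) in DBAxFVB F1 and 6.45 ± 0.80 (SD, n = 2) in AKRxFVB F1. The difference was -1.41 ± 0.42 (SE), a linear ratio of 0.377, with a limma adjusted p of 0.320. The groups did not overlap, but the highest DBAxFVB F1 value, on array 3, lay 0.32 below the lower AKRxFVB F1 value.

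The other Mcl1 probe sets showed the same order of crosses at different sizes. Probe set 1456381_x_at read 4.73, 4.47 and 5.14 in DBAxFVB F1, against 7.37 and 5.84 in AKRxFVB F1, a difference of -1.83 ± 0.46 (SE). Probe set 1456243_x_at read 4.66, 4.63 and 4.84 in DBAxFVB F1, against 7.29 and 5.72 in AKRxFVB F1, a difference of -1.79 ± 0.44 (SE). Probe sets 1437527_x_at and 1416880_at differed by -1.50 ± 0.52 and -1.19 ± 0.46 (SE). Probe set 1416881_at, with values between 2.45 and 3.21 near the array medians, differed by -0.44 ± 0.17 (SE). The limma adjusted p of the 6 lay between 0.235 and 0.434. They share 1 target RNA and are not independent. With both other genes counted, 9 of the 22 tested member probe sets were lower in DBAxFVB F1 with no overlap between the groups, against 12.6% of all tested probe sets.

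AKRxFVB F1 array 1 was the highest array for all 6 Mcl1 probe sets, and the size of their differences depended on it. Without it the difference of 1448503_at was -0.84, and without AKRxFVB F1 array 2 it was -1.98. Those of the other 5 were between -1.06 and -0.28 without array 1, and between -2.60 and -0.60 without array 2. All 6 kept their sign in every alternative in which they were tested. Relative to its mean over the arrays, the median Mcl1 probe set lay at -0.57, -0.93 and -0.31 on the DBAxFVB F1 arrays and at 1.66 and 0.19 on the AKRxFVB F1 arrays. Apart from DBAxFVB F1 array 3, this is also the order of the arrays by their excess of 3-prime signal for Actb and Gapdh, whose part in the Mcl1 values was not tested.

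**Figure D2:**
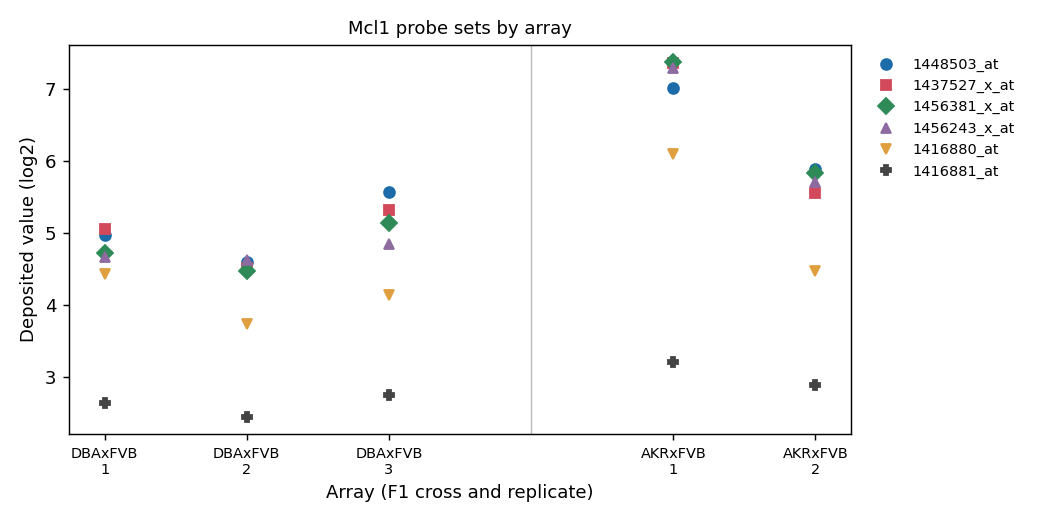
Deposited log2 value (vertical axis) of the 6 Mcl1 probe sets on each array (horizontal axis, DBAxFVB F1 left of AKRxFVB F1), 1 symbol per probe set. AKRxFVB F1 array 1 is the highest array for all 6, and every DBAxFVB F1 value of a probe set lies below both of its AKRxFVB F1 values.

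Markers of B cells followed Mcl1 only in part across the arrays. Of 9 B cell markers tested, 8 were lower in DBAxFVB F1, with a median difference of -1.05 and 0 called by limma. At an unadjusted p below 0.05 were 4, all lower, against 6.79% of all tested probe sets in that direction. The median was -0.36 without AKRxFVB F1 array 1 and -1.74 without AKRxFVB F1 array 2. Their summed linear level was 153 to 280 in DBAxFVB F1 and 310 to 693 in AKRxFVB F1. AKRxFVB F1 array 1 was again the highest, at a median deviation of 1.32. Unlike in Mcl1, DBAxFVB F1 array 3 lay above AKRxFVB F1 array 2, at median deviations of 0.08 and -0.06. Ms4a1, which encodes the B cell antigen CD20, read 5.29, 5.16 and 6.19 in DBAxFVB F1, against 8.03 and 6.97 in AKRxFVB F1. This was the largest difference of the list, at -1.96, whereas Fcer2a and Pax5 differed by -0.08 and 0.09. None of the 9 tested B cell markers is at 0 on this scale. In whole blood, fewer cells of a type and less RNA per cell cannot be told apart, and the part of B cells in the Mcl1 values was not tested.

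Markers of myeloid cells differed in both directions. Of 9 monocyte markers 5 were lower in DBAxFVB F1, with a median of -0.38 that became 0.09 after quantile and -0.01 after cyclic loess normalization. It was -0.23 when DBAxFVB F1 array 2 was left out and -0.24 when DBAxFVB F1 array 1 was. Their summed linear level was 461 to 879 in DBAxFVB F1 and 797 to 1108 in AKRxFVB F1. At an unadjusted p below 0.05 were 2 monocyte markers, Ctss and Cybb, which like Mcl1 were highest on AKRxFVB F1 array 1 and lower in DBAxFVB F1 with no overlap. Of all tested probe sets, 6.79% were lower at that p and 12.6% were lower with no overlap. Ctss, a lysosomal protease, read 5.96, 6.36 and 7.25 in DBAxFVB F1, against 8.56 and 7.45 in AKRxFVB F1. Cybb, a subunit of the phagocyte oxidase, read 3.56, 3.28 and 4.69 in DBAxFVB F1, against 5.71 and 4.71 in AKRxFVB F1. In contrast, the groups overlapped for the defining marker Csf1r. Csf1r, the receptor for macrophage colony-stimulating factor, read 4.66, 4.65 and 6.18 in DBAxFVB F1, against 5.86 and 5.56 in AKRxFVB F1. Of 8 neutrophil markers 6 were higher in DBAxFVB F1, with a median of 0.11 that turned to -0.22 without AKRxFVB F1 array 2 and became 0.02 without DBAxFVB F1 array 3. Their summed levels overlapped, at 245 to 418 in DBAxFVB F1 and 275 to 449 in AKRxFVB F1. The neutrophil calprotectin gene S100a8 read 6.35, 6.23 and 7.00 in DBAxFVB F1, against 7.43 and 6.43 in AKRxFVB F1. S100a8 and S100a9 were the 2 lower neutrophil markers, with differences of -0.40 and -0.36. The 1 neutrophil marker at an unadjusted p below 0.05, Csf3r, was higher. It read 3.78, 3.43 and 3.64 in DBAxFVB F1, against 3.18 and 3.21 in AKRxFVB F1. Of all tested probe sets, 16.4% were higher with no overlap, as Csf3r was. None of these markers passed the test, and the part of myeloid cells in the Mcl1 values was not tested.

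**Figure D3:**
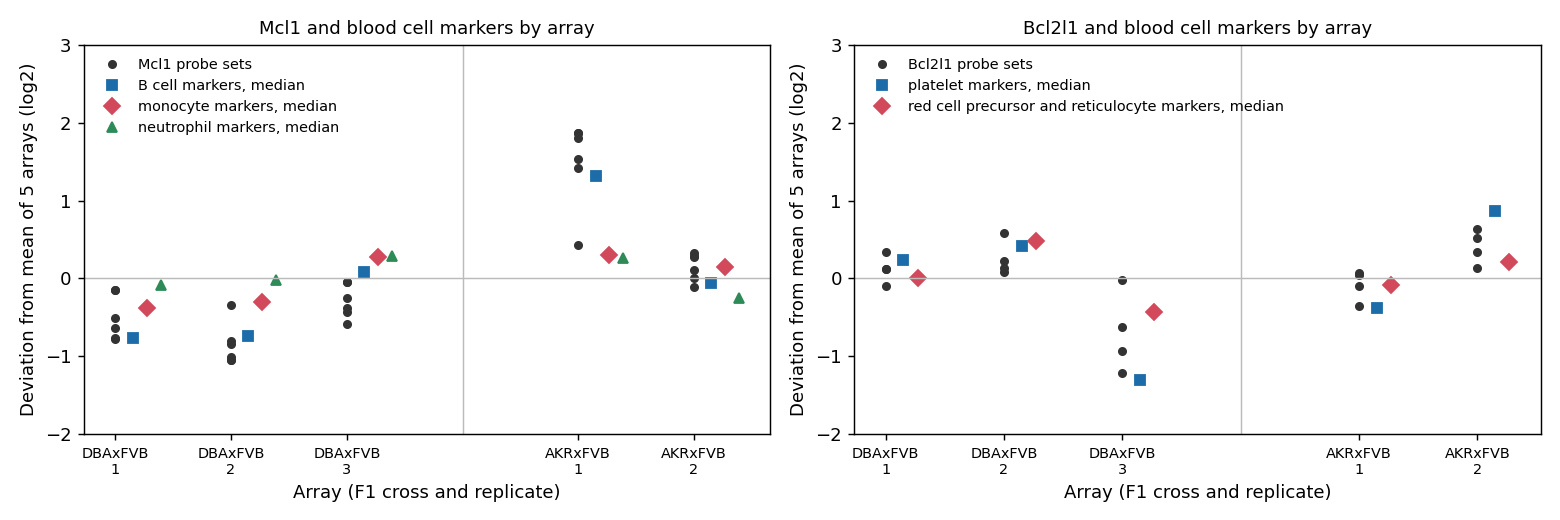
Deviation of each value from its mean over the 5 arrays (log2, vertical axis) by array (horizontal axis): single probe sets of Mcl1 (left panel) or Bcl2l1 (right panel) as black circles, medians of cell type markers as coloured symbols. B cell markers are highest on AKRxFVB F1 array 1 (1.32), as is Mcl1, and platelet markers are lowest on DBAxFVB F1 array 3 (-1.30), as are the 3 Bcl2l1 probe sets with means above 6.

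The genes whose pattern lay nearest to Mcl1 1448503_at over the 5 arrays were Snx2, a sorting nexin of endosomes, and Foxp1, a forkhead transcription factor. Their root mean square distances, after each probe set was centred on its mean, were 0.08 and 0.10. Snx2 read 3.38, 3.05 and 3.83 in DBAxFVB F1, against 5.49 and 4.21 in AKRxFVB F1. Foxp1 read 4.97, 4.69 and 5.40 in DBAxFVB F1, against 6.92 and 5.72 in AKRxFVB F1. With 5 arrays this nearness is a description only.

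Bcl2l1 encodes Bcl-xL and its short splice form, and its 3 probe sets with means above 6 varied more within a cross than from cross to cross. Probe set 1420888_at read 9.42, 9.44 and 8.68 in DBAxFVB F1, against 9.34 and 9.64 in AKRxFVB F1. The difference was -0.31 ± 0.39 (SE, limma adjusted p = 0.801), and it turned to 0.25 after quantile and 0.17 after cyclic loess normalization. The groups overlapped, and DBAxFVB F1 array 3 was the lowest of the 5 arrays.

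The groups also overlapped in the other Bcl2l1 probe sets. Probe set 1420887_a_at read 7.48, 7.59 and 6.43 in DBAxFVB F1, against 7.43 and 7.88 in AKRxFVB F1. Probe set 1426191_a_at read 6.98, 7.22 and 5.43 in DBAxFVB F1, against 6.28 and 7.26 in AKRxFVB F1. Array 3 was the lowest in both, and without it their differences were -0.12 and 0.33, against -0.48 ± 0.44 and -0.23 ± 0.58 (SE) with it. Quantile and cyclic loess normalization gave -0.0044 and -0.15 for 1420887_a_at, and 0.14 and 0.03 for 1426191_a_at, which also turned to 0.26 without AKRxFVB F1 array 2 and 0.10 with array weights. Probe set 1426050_at, with values between 2.56 and 2.80 near the array medians, differed by -0.04 ± 0.15 (SE), and its sign turned when AKRxFVB F1 array 2 or DBAxFVB F1 array 1 was left out.

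Platelet markers were lowest on the same array as Bcl2l1. Their median deviation was 0.24, 0.42 and -1.30 on the DBAxFVB F1 arrays and -0.38 and 0.86 on the AKRxFVB F1 arrays. Of 9 tested, 8 were lower in DBAxFVB F1, 0 were called by limma and 0 had an unadjusted p below 0.05. Their median difference of -0.52 became -0.08 after quantile and -0.11 after cyclic loess normalization. It turned to 0.13 without DBAxFVB F1 array 3 and 0.23 without AKRxFVB F1 array 2, and was -1.08 without AKRxFVB F1 array 1. Their summed linear level was 1567 to 5711 in DBAxFVB F1 and 3670 to 7512 in AKRxFVB F1. The defining marker Pf4, a platelet chemokine, read 10.72, 10.29 and 8.53 in DBAxFVB F1, against 9.58 and 11.30 in AKRxFVB F1. Of 7 red cell markers, 4 were lower in DBAxFVB F1 with a median of -0.0055, a sign that turned to 0.11 after quantile and 0.13 after cyclic loess normalization. All 7 were lower without DBAxFVB F1 array 2, with a median of -0.39, and all 7 higher without DBAxFVB F1 array 3, with a median of 0.15. Their median deviation on array 3 was -0.44. Low values on array 3 were not particular to these genes. Over all probe sets with means of 6 to 8 and of 8 to 10, the median deviation there was -0.65 and -0.91. The median cross differences of these probe sets were -0.44 and -0.56. The hybridisation controls of array 3 were dim as well, and the part of platelets, red cells or signal strength in the Bcl2l1 values was not tested.

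Bcl2, the founding survival gene of the family, gave differences of both signs over its 5 probe sets. Probe set 1422938_at read 4.43, 4.87 and 5.23 in DBAxFVB F1, against 4.40 and 4.76 in AKRxFVB F1, a difference of 0.26 ± 0.29 (SE, limma adjusted p = 0.775). The groups overlapped, and without DBAxFVB F1 array 3 the difference was 0.07. Probe set 1457687_at read 3.05, 2.73 and 3.24 in DBAxFVB F1, against 3.59 and 3.86 in AKRxFVB F1, a difference of -0.71 ± 0.20 (SE, limma adjusted p = 0.280). Here every DBAxFVB F1 array lay below both AKRxFVB F1 arrays, and the difference stayed between -0.85 and -0.58 in the alternatives. Probe set 1437122_at differed by -0.14 ± 0.15 with groups that did not overlap. Probe set 1443837_x_at differed by 0.01 ± 0.19 (SE) and turned to -0.03 and -0.05 after median centring and cyclic loess normalization, and to -0.07 without DBAxFVB F1 array 1. Probe set 1440770_at, with a mean of 2.40, was below the filter.

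Markers of T cells, which in mice rely on Bcl2, were lower in DBAxFVB F1 for 8 of 9 genes tested. Their median was -0.38, and 0 were called by limma. At an unadjusted p below 0.05 were 4, all lower, against 6.79% of all tested probe sets in that direction. The median was -0.63 without DBAxFVB F1 array 1, but -0.27 without DBAxFVB F1 array 2 and -0.28 without DBAxFVB F1 array 3. Without AKRxFVB F1 array 2 it was -0.27, with 6 markers lower and 3 higher. Their summed linear level was 197 to 236 in DBAxFVB F1 and 262 to 298 in AKRxFVB F1. The defining marker Cd3e, a chain of the T cell receptor complex, read 5.09, 4.80 and 4.84 in DBAxFVB F1, against 5.18 and 5.27 in AKRxFVB F1. Their part in the values of Bcl2 1457687_at or of Mcl1 was not tested.

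Bcl2l11 encodes Bim, a BH3-only protein that binds all survival members, and 1 of its 5 probe sets had the smallest p of any member. Probe set 1456005_a_at read 3.45, 3.43 and 3.19 in DBAxFVB F1, against 4.50 and 5.22 in AKRxFVB F1. Its mean was 3.36 ± 0.15 (SD, n = 3) in DBAxFVB F1 and 4.86 ± 0.51 (SD, n = 2) in AKRxFVB F1. The difference was -1.50 ± 0.25 (SE), a linear ratio of 0.353, with an unadjusted p of 0.000394 and a limma adjusted p of 0.144. All DBAxFVB F1 arrays lay below both AKRxFVB F1 arrays, by more than the range within either cross. Markers of T cells, B cells and platelets were each lower for 8 of 9 tested, with medians of -0.38, -1.05 and -0.52. Of the monocyte markers 5 of 9 were lower and of the red cell markers 4 of 7, whereas 6 of 8 neutrophil markers were higher. The part of any cell type in these values was not tested. The Bcl2l11 difference lay between -1.86 and -1.14 in the alternatives, whose adjusted p ranged from 0.0724 to 0.764.

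The other tested Bcl2l11 probe sets did not share this difference. Probe set 1435448_at read 3.82, 3.77 and 3.89 in DBAxFVB F1, against 3.82 and 3.86 in AKRxFVB F1, a difference of -0.01 ± 0.17 (SE). Probe set 1456006_at read 3.26, 3.29 and 3.40 in DBAxFVB F1, against 2.92 and 3.12 in AKRxFVB F1, a difference of 0.30 ± 0.16 (SE, limma adjusted p = 0.555). This was the only tested member probe set that was higher in DBAxFVB F1 with no overlap, against 16.4% of all tested probe sets. Probe sets 1426334_a_at and 1435449_at, with means of 2.40 and 2.15, were below the filter. The first differed by 0.22 with overlapping groups. The second differed by -0.28 with no overlap, but was above the array median on 0 arrays. Several transcript forms of this gene are annotated, and the parts of the transcript that each probe set detects are not in the files, so forms could not be compared.

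**Figure D4:**
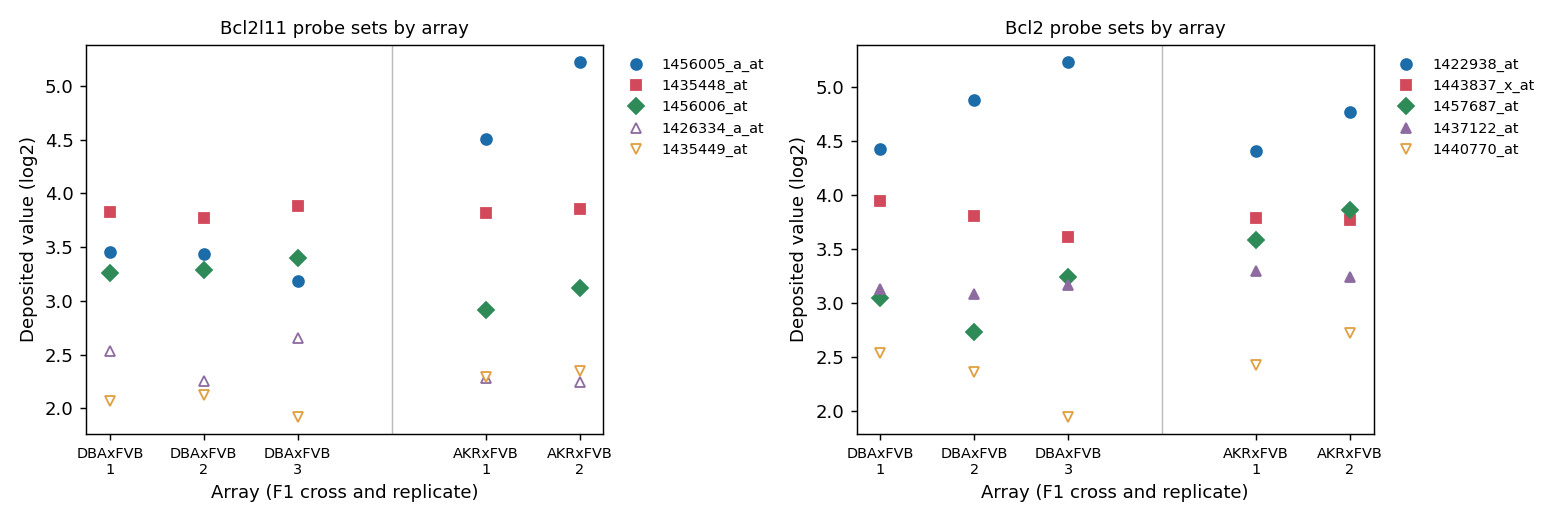
Deposited log2 value (vertical axis) of the 5 Bcl2l11 (left panel) and 5 Bcl2 (right panel) probe sets on each array (horizontal axis, DBAxFVB F1 left of AKRxFVB F1), with open symbols for probe sets below the filter. Bcl2l11 1456005_a_at lies at 3.19 to 3.45 in DBAxFVB F1 and at 4.50 and 5.22 in AKRxFVB F1, whereas 1435448_at stays between 3.77 and 3.89 on all 5 arrays.

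Nearest to the pattern of Bcl2l11 1456005_a_at were Thrap3, a nuclear protein of transcription and splicing, and Wdr61, a subunit of complexes acting on RNA polymerase and RNA decay. Their root mean square distances were 0.14 and 0.15. Thrap3 read 3.19, 2.98 and 2.95 in DBAxFVB F1, against 4.01 and 4.60 in AKRxFVB F1. The highest array of Bcl2l11 and Thrap3 was AKRxFVB F1 array 2, whereas that of Mcl1, Snx2 and Foxp1 was AKRxFVB F1 array 1.

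The 250 bases before the RefSeq starts of the 2 members with the largest differences are shown, since these largest differences had the same sign. The 3 tested Bcl2l11 probe sets, however, differed by between -1.50 and 0.30. The Mcl1 window is chr3:95658471-95658720 and the Bcl2l11 windows, before a first and a second start, are chr2:128125788-128126037 and chr2:128127325-128127574, all on the plus strand of GRCm38.p6. Capitals mark matches, on either strand, to the TATA box (TATAAA), the CCAAT box, the GC box (GGGCGG), the forkhead-type motif GTAAACA and the STAT-type motif TTCNNNGAA.
Mcl1: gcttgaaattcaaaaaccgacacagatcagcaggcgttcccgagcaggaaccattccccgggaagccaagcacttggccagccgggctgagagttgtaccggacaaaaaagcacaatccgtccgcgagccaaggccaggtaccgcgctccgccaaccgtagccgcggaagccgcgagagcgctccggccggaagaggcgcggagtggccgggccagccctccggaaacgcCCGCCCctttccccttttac
Bcl2l11 first start: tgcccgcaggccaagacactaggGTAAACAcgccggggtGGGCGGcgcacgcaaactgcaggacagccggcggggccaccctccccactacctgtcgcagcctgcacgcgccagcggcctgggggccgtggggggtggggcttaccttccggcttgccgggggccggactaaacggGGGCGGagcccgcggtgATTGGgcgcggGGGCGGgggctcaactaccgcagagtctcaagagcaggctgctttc
Bcl2l11 second start: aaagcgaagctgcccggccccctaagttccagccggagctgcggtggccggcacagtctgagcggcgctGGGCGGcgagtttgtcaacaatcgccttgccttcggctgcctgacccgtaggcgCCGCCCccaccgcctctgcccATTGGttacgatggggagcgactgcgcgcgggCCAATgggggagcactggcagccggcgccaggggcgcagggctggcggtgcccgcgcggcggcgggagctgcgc
The Mcl1 window held 1 GC box match. The first Bcl2l11 window held 3 GC box matches, 1 CCAAT box match and 1 forkhead-type match, and the second held 2 GC box and 2 CCAAT box matches. No matches overlapped, and the letters of the TATA box and the STAT-type motif were in none of these windows. Over 32851 windows of the same length, 32.7% held the GC box, 33.8% the CCAAT box, 3.17% the forkhead-type motif, 12.4% the TATA box and 7.02% the STAT-type motif.

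The pore former Bak1 and the BH3-only genes Bad and Bid read near the lower end of the scale and differed little. Bak1, whose protein oligomerises in the mitochondrial membrane, read 2.73, 2.91 and 2.87 in DBAxFVB F1 with 1418991_at, against 3.18 and 2.90 in AKRxFVB F1, a difference of -0.20 ± 0.16 (SE). It was -0.06 without AKRxFVB F1 array 1, and the groups overlapped. The second Bak1 probe set, 1425716_s_at, had a mean of 2.48, below the filter, and was not tested. It read 2.54, 2.51 and 2.77 in DBAxFVB F1, against 2.31 and 2.29 in AKRxFVB F1. This difference of 0.30, with no overlap, had the opposite sign.

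Bad, a BH3-only protein whose binding is switched off by growth factor kinases, read 3.49, 3.62 and 3.71 in DBAxFVB F1 with 1416582_a_at, against 3.53 and 3.56 in AKRxFVB F1. The difference was 0.06 ± 0.17 (SE) and became -0.0028 after cyclic loess normalization. Probe set 1416583_at differed by 0.13 ± 0.14 (SE). Both Bad probe sets had overlapping groups and a limma adjusted p of at least 0.764.

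Bid, which links death receptors to the mitochondrial step once cleaved by caspases, had 2 tested probe sets of opposite sign. Probe set 1417045_at read 2.97, 2.88 and 2.41 in DBAxFVB F1, against 2.88 and 3.20 in AKRxFVB F1, a difference of -0.28 ± 0.21 (SE). Probe set 1448560_at read 2.49, 2.49 and 3.06 in DBAxFVB F1, against 2.57 and 2.35 in AKRxFVB F1, a difference of 0.22 ± 0.21 (SE). In each of them DBAxFVB F1 array 3 lay farthest from the others, and the difference of 1417045_at was -0.11 without it. Probe set 1447873_x_at, with a mean of 1.91, was above the array median on no array.

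Other genes of the apoptosis pathway were counted from 4 lists, in which limma called 0 genes in either direction. Of 12 other BCL2 family genes tested, 9 were higher and 3 lower in DBAxFVB F1, with a median of 0.18. Bnip2, a BCL2-interacting protein, read 4.20, 4.20 and 4.52 in DBAxFVB F1, against 3.96 and 3.56 in AKRxFVB F1 (limma adjusted p = 0.444). The BH3-only gene Bmf read 3.41, 3.59 and 5.15 in DBAxFVB F1, against 2.67 and 3.17 in AKRxFVB F1, a difference of 1.13 ± 0.49 (SE) that was 0.58 without DBAxFVB F1 array 3. On the lower side, Bcl2l15 and Becn1 differed by -0.14 each, and Becn1, a regulator of autophagy, turned to as much as 0.44 under another scaling.

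The mitochondrial death machinery list also holds inhibitors of caspases, such as Xiap. Its genes were lower for 13 of 16 tested, with a median of -0.26. At an unadjusted p below 0.05 were 2, which were lower, against 6.79% of all tested probe sets in that direction. Without AKRxFVB F1 array 2 the median was -0.15, with 11 lower and 5 higher. Xiap, an inhibitor of caspases, read 4.33, 3.66 and 3.44 in DBAxFVB F1, against 4.75 and 5.01 in AKRxFVB F1, a difference of -1.07 ± 0.29 (SE, limma adjusted p = 0.262). Casp2, a caspase upstream of Bid, read 4.03, 3.60 and 3.44 in DBAxFVB F1, against 4.41 and 4.42 in AKRxFVB F1, a difference of -0.72 ± 0.23 (SE). In both, DBAxFVB F1 was lower with no overlap, against 12.6% of all tested probe sets. The initiator caspase gene Casp9 and the ubiquitin ligase gene Birc6 differed by 0.32 ± 0.29 and 0.16 ± 0.14 (SE).

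Of 6 death receptor genes tested, 5 were higher in DBAxFVB F1, with a median of 0.14, or 0.06 without AKRxFVB F1 array 1, and 0 at an unadjusted p below 0.05. Casp8, the caspase that cleaves Bid, differed by -0.18 ± 0.19, and the receptor genes Tnfrsf10b and Tnfrsf1a by 0.24 ± 0.16 and 0.30 ± 0.28 (SE). Of 13 partners that act on the members, 12 were lower, with a median of -0.21. Ywhae, a 14-3-3 protein of the family that sequesters Bad, read 6.95, 6.41 and 6.14 in DBAxFVB F1, against 7.53 and 7.69 in AKRxFVB F1. Its difference of -1.11 ± 0.35 (SE, limma adjusted p = 0.343) was -0.64 in the scaling that moved it most. Ywhae had a mean of 6.94, and over all probe sets with means of 6 to 8 the median difference was -0.44. Bag1 and Ywhaz, also partners, had means in that range. Stat5b, a cytokine-activated transcription factor, differed by -0.41 ± 0.22, and the kinase gene Mapk8 by 0.03 ± 0.15, a sign that turned under other scalings.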

How the data were processed

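Total RNA of whole blood, drawn by cardiac puncture, was amplified with a 2-cycle kit and hybridised, 1 array per sample, per the labels' protocols. The deposited values, 1 for each of 45101 probe sets on each array, were taken as log2 expression because they ran from 1.29 to 14.8. The submitters' processing notes list MAS5 and RMA; which of them gave the deposited values is not given in the sources used here, so background correction and compression of low values are unknown. The 64 array controls were not tested. By the platform annotation, 34958 probe sets have a single gene symbol, 932 have several and 9211 have none. Columns of values outside the 5 samples numbered 0.

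Probe sets with a mean of at least 2.51, the median over those that are not controls, entered a fit of limma 3.58.1 (R 4.3.3), with lmFit, eBayes with a variance trend, no term other than cross and two-sided p-values. Benjamini-Hochberg adjustment ran over all 22519, with a threshold of 0.05. The fit was tested on simulated data. An exact permutation test of 3 arrays against 2 cannot give a p under 0.1 and was not used. The members and gene lists were chosen with earlier results of these data known. Every probe set with 1 member symbol is reported. From each pathway list, genes past the threshold, or otherwise up to 2 with the smallest p in each direction, are named by their probe set with the highest mean. For members whose probe set with the highest mean spans over 1 on the log2 scale (Mcl1 and Bcl2l11), the 2 genes nearest in pattern are named. Promoter windows came from RefSeq (GRCm38.p6), which held windows for all 8 members. Alternatives were other normalizations, filters and variance estimates, array weights, a replicate block and each array left out. Python 3.11.15, pandas 2.3.3 and matplotlib 3.10.9 were used.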

Additional observations from a re-analysis of the deposited data

How the results depend on the processing

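Limma called 0 of all tested probe sets and 0 member probe sets at an adjusted p below 0.05 under each of the 14 alternatives. All 301 member differences computed under them were uncalled, 285 with the direction of the deposited values and 16 with the opposite one. Members at an unadjusted p below 0.05 numbered 8, or 4 to 8 with 1 array left out, and 6 to 9 in the others. Over all tested probe sets that count was 2337, or 3880 without a filter, 1299 with a filter at the 75th percentile and 1243 without AKRxFVB F1 array 1. The median member difference was -0.40 with the filter at the 75th percentile and -0.11 with the replicate block. The cause of the turned directions was not tested. Bcl2 1443837_x_at was at -0.033 after median centring, -0.053 after cyclic loess normalization and -0.068 to 0.097 with 1 array left out. Bcl2l1 1420888_at was at 0.25 after quantile and 0.17 after cyclic loess normalization. Bcl2l1 1426191_a_at was at 0.14 after quantile and 0.027 after cyclic loess normalization, 0.10 with array weights, and -0.72 to 0.33 with 1 array left out. Bcl2l1 1426050_at ranged from -0.15 to 0.076, and Bcl2l11 1435448_at from -0.042 to 0.015, with 1 array left out. Bad 1416582_a_at was at -0.0028 after cyclic loess normalization.

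With the replicate number as a block, which absorbs DBAxFVB F1 array 3 because no AKRxFVB F1 array shares its number, Bcl2l1 1426191_a_at was at 0.33, Mcl1 1448503_at at -1.67 and Bcl2l11 1456005_a_at at -1.42, and the count of members at an unadjusted p below 0.05 was 8. Deviations from the cross means correlated at -0.26 between the arrays numbered 1 and at 0.17 between those numbered 2, across probe sets. The deviations of the 2 AKRxFVB F1 arrays are mirror images, so these correlations cannot tell whether the numbers pair the samples. With 1 array of AKRxFVB F1 left out, the lone other array is assumed to vary like the DBAxFVB F1 arrays. Values near 2.5 have no stated limit of detection, which limits Bak1, Bid, Bad 1416583_at, Mcl1 1416881_at and Bcl2l1 1426050_at.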
